A study of Mus musculus with 27 samples.

Results

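The heat shock proteins and chaperonins described here were 10 genes chosen by name, Hsp90aa1, Hsp90ab1, Hspa8, Hspa1a, Hspa1b, Hsph1, Dnajb1, Hspd1, Hspe1 and Hspa9, out of 23279 genes in the deposited expression table. They were followed across all 9 groups of a mouse study of limb bud organoids grown from embryonic stem (ES) cells. The measured values that entered the choice were the missing values of 1 library, which was left out, and the genes themselves were picked with earlier results of these data known.

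Heat shock proteins are molecular chaperones, which bind unfolded or partly folded proteins and use ATP to let them fold, refold or pass to another compartment. HSP70 proteins work with J-domain partners that deliver clients and with exchange factors that release nucleotide, HSP90 takes over late folding steps of kinases and transcription factors, and chaperonins are barrels that enclose a folding chain. Some of these genes are transcribed at all times and others are switched on by heat shock factor 1 when unfolded protein accumulates, so the family holds housekeeping and stress-inducible genes side by side.

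ES–FLB and ES–HLB were forelimb-type and hindlimb-type cells of the line EB5 Hand2::GFP +/-, which carries the reporter on 1 allele. They had been cultured to day 9 as aggregates with BMP4 and Matrigel, then with retinoic acid (forelimb) or a retinoic acid antagonist (hindlimb). Hydrocortisone, a glucocorticoid, and methylcellulose came after that and stayed to the end, and the BMP inhibitor LDN193189 and then Wnt3 were added for part of this time. The aggregates were trypsinised, and cells positive for the Hand2 reporter were sorted by FACS, 96 aggregates going into a sort. The embryonic groups were Slc:ICR forelimb bud (FLB) and hindlimb bud (HLB) at an early stage and at E10.5, with 3 further E10.5 tissues, branchial arch (BA), the heart (Ca) and tail bud tissue (TB), cut from embryos with no sort named. Both early groups are labelled E10.0, while the figure text of the study dates the early FLB before and the early HLB after that. All groups had 3 libraries except HLB E10.5, of which 2 were used, and the labels do not say whether libraries came from separate cultures or embryos, so that p-values measure the spread between libraries, which may be technical.

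Strain, culture, enzymatic dissociation and sorting all separated the ES-derived groups from the embryonic ones, and their effects cannot be told apart. In whole tissue, fewer cells of a type and less RNA per cell cannot be told apart either. The marker genes of heart, arch and tail bud were highest where the labels place them, with summed levels of 6202 to 7152 counts per 1000000 (CPM) for 4 heart muscle genes in Ca, 364 to 381 for 4 arch genes in BA and 210 to 251 for 4 tail bud genes in TB. The 6 limb bud mesenchyme genes summed to 604 to 1301 CPM over limb buds and ES-derived cells, to 837 to 894 in BA, 265 to 300 in Ca and 110 to 138 in TB, so that they did not set BA apart from the limb buds. The depth was about 5543739 to 8541909 reads per library outside the early limb buds and 19641901 to 22141962 in the early limb buds, so that depth and stage were confounded. The library left out, HLB E10.5 replicate 2, lacked values on chromosomes 5 to 9 and X and on chromosome 4 from position 138304738 on (mm10).

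Promoter sequences were looked at for a heat shock element, the DNA letters read by heat shock factors. The windows of 250 bases before to 50 after the start site in the RefSeq annotation of GRCm38.p6 matched 6 of 10 members. Hsp90aa1, Hsp90ab1, Hspa8 and Hspa9 had no window and were not searched. The search took inverted units of GAA on both strands. A pair of units (GAANNTTC or TTCNNGAA) was present in 4946 of 32851 windows (15.1%), and 3 units in a row (GAANNTTCNNGAA or TTCNNGAANNTTC) in 198 (0.603%). The 2-unit motif was found in 5 of the 6 matched members, all but Dnajb1, and the 3-unit motif in Hspd1, Hspe1 and Hsph1. Some members had several windows. Counted by window, as in the shares above, the motifs were in 6 of 9 (2 units) and 4 of 9 (3 units). A match is a description of letters and overlapping matches of both motifs were counted. Hspd1 and Hspe1, divergent genes for the mitochondrial chaperonin and its lid, shared 1 run of units at chr1:55088053-55088082 (plus strand), with capitals marking the units. The run lay before the start of Hspe1 and before the inner of 2 annotated starts of Hspd1, and inside the gene as counted from the outer one.
Hspe1/Hspd1: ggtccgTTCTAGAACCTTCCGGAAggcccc
In Hsph1 the 2-unit match nearest before a start site lay at chr5:149636351-149636380 (minus strand), and its 3-unit match lay after the start site. Both lay inside the annotated gene, whose outer end is at 149636498, and the stretch shown overlaps an annotated exon.
Hsph1: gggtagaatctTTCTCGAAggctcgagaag
The 250 bases before the start sites of the twin genes Hspa1a (chr17:34972157-34972406, minus strand) and Hspa1b (chr17:34959239-34959488, minus strand) were identical at 247 positions and differed at 3, and both held a 2-unit match, in capitals, that began 104 bases before the start.
Hspa1a: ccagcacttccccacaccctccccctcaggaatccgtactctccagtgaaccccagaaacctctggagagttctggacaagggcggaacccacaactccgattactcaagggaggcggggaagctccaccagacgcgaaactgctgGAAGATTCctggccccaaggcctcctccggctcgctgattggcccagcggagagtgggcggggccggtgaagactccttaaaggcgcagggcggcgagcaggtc
Hspa1b: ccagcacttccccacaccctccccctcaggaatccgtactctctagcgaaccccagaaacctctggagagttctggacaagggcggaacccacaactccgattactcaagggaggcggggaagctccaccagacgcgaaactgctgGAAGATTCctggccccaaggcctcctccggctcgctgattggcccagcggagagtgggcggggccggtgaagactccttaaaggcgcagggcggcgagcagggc

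Values below are CPM as deposited, rescaled by a trimmed mean of log ratios over the 26 libraries used, and differences are on the log2(CPM + 0.5) scale. Per kilobase of transcript, the order of the members in early FLB was Hsp90ab1 (2288 CPM per kb), Hspa8 (2048), Hsp90aa1 (924), Hspd1 (791), Hspe1 (606), Hspa9 (286), Hsph1 (102), Dnajb1 (29.6), Hspa1b (0.436) and Hspa1a (0.149). The order was the same in ES–FLB, where Hsp90ab1 was at 1091 CPM per kb, Hspa8 at 883, Hsp90aa1 at 198, Hsph1 at 40.0 and Dnajb1 at 37.4. Summed over the 10 genes, the members made up 17435 CPM on average in early FLB, 15543 in early HLB, 13003 in HLB E10.5, 11180 in TB, 10816 in BA, 10562 in FLB E10.5, 10315 in Ca, 7705 in ES–HLB and 6717 in ES–FLB. Every ES-derived library, at 6581 to 8178 CPM, was below every embryonic library, the lowest of which was at 9955.

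**Figure D1:**
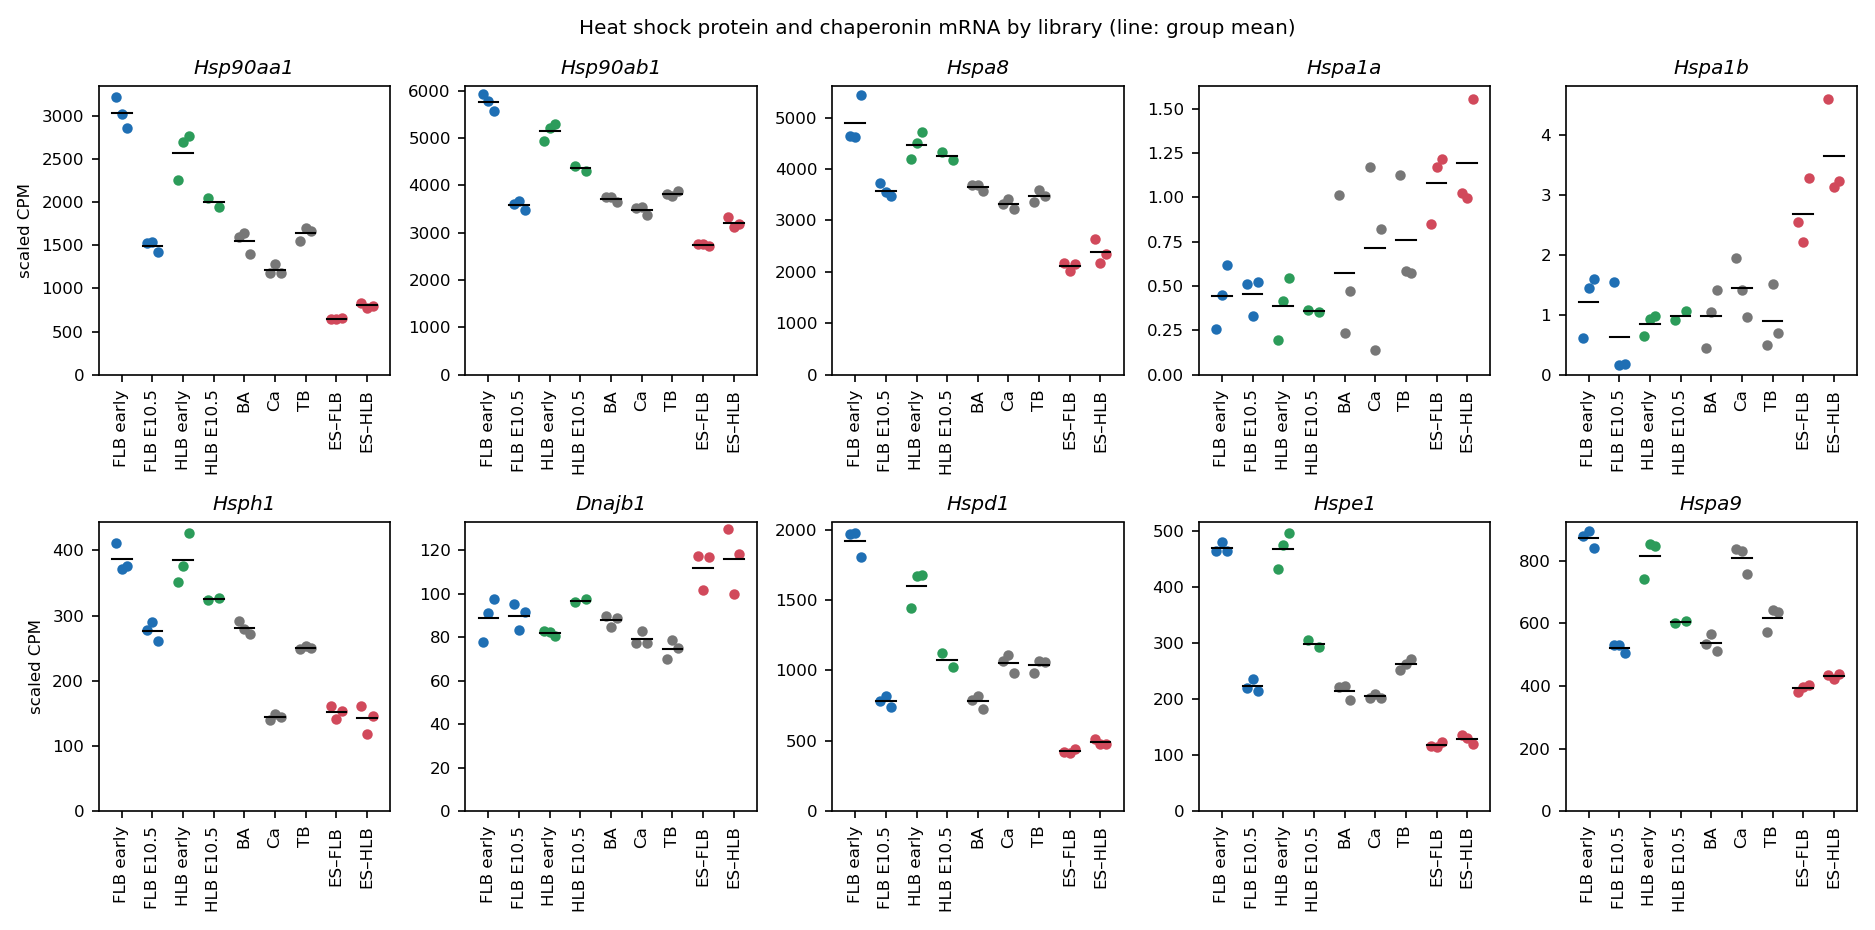
Scaled CPM of each of the 10 members (1 panel per gene, linear axes from 0) in the 26 libraries used, with a dot per library and a line at the group mean. In the panels of Hsp90aa1, Hsp90ab1, Hspa8, Hspd1, Hspe1 and Hspa9 the ES-derived libraries are the lowest, while in that of Dnajb1 their means of 112 and 116 CPM are the highest. For Hsp90ab1 this depends on the rescaling.

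Hsp90aa1 encodes the inducible form of cytosolic HSP90 and lies at chromosome 12, 110691036 to 110696395 (GRCm38.p6). Its 3 libraries of early FLB were at 3218, 3021 and 2857 CPM, and those of early HLB at 2259, 2696 and 2772. At E10.5 FLB held 1529, 1532 and 1427 CPM and HLB 2050 and 1942. BA was at 1591, 1644 and 1398, TB at 1554, 1706 and 1664, and Ca lower, at 1182, 1281 and 1178. ES–FLB was at 647, 643 and 660.5 CPM and ES–HLB at 837, 777 and 796. The group means spanned 4.66-fold, from 3032 ± 181 (SD, n = 3) in early FLB to 650 ± 9.26 (n = 3) in ES–FLB. Neighbours in this order did not overlap except TB, BA and FLB E10.5.

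Hsp90ab1, the constitutive form of cytosolic HSP90 (chromosome 17, 45567778 to 45573261), followed the same order over a narrower span of 2.10-fold. Early FLB was at 5940, 5783 and 5573 CPM, early HLB at 4929, 5212 and 5294, and HLB E10.5 at 4408 and 4307. FLB E10.5 held 3617, 3669 and 3487, BA 3746, 3757 and 3643, TB 3825, 3773 and 3882, and Ca 3525, 3550 and 3383. ES–HLB, at 3324, 3115 and 3180 CPM, lay just below Ca, and ES–FLB, at 2769, 2752 and 2728, below all others. The place of ES–HLB depended on the rescaling. With CPM as deposited its mean was 3398, above the 3286 of Ca.

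Hspa8, the constitutive cytosolic HSP70 (chromosome 9, 40801276 to 40805202), stood at 4635, 4627 and 5446 CPM in early FLB and 4202, 4507 and 4716 in early HLB. At E10.5 HLB was at 4332 and 4168 and FLB at 3727, 3550 and 3473, with BA, TB and Ca between 3228 and 3694. ES–HLB was at 2636, 2169 and 2344 CPM and ES–FLB at 2174, 2016 and 2151, and these groups overlapped each other and no embryonic library.

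Hspa1a and Hspa1b encode the stress-inducible HSP70 and lie side by side on chromosome 17, at 34969359 to 34972156 and 34956429 to 34959238. Both were low in every library. Hspa1a, close to the limit of detection, was at 0.141 to 1.56 CPM, or 1 to 13 reads, over all 26 libraries. Hspa1b was at 2.55, 2.21 and 3.29 CPM in ES–FLB and 4.60, 3.13 and 3.23 in ES–HLB, against 0.166 to 1.96 in the 20 embryonic libraries, which is 17 to 36 reads against 1 to 31. Of all 80-base windows of their transcripts, 53.1% and 54.7% also occur in another gene, mainly the other twin, so that only their sum is firm. That sum was 3.38 to 4.51 CPM in ES–FLB, 4.13 to 5.62 in ES–HLB and 0.497 to 3.13 in the embryonic libraries, which therefore did not overlap the ES-derived ones. In reads these levels are small, and 3 reads correspond to 0.135 to 0.541 CPM depending on the library.

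The HSP70 partners went separate ways. Hsph1, an HSP110 protein that releases nucleotide from HSP70 (chromosome 5, 149616843 to 149636498), was at 412, 371 and 376 CPM in early FLB and 352, 375 and 427 in early HLB. It was at 277, 290 and 261 in FLB E10.5, 324 and 327 in HLB E10.5, 292, 279 and 272 in BA, and 248, 254 and 250 in TB. Ca, at 140.5, 150 and 144 CPM, was as low as ES–FLB, at 161, 141 and 154, and ES–HLB, at 162, 119 and 146. Dnajb1, the heat-inducible HSP40 that delivers clients to HSP70 (chromosome 8, 83608175 to 83612653), varied least, by 1.55-fold between group means. It was at 117, 102 and 117 CPM in ES–FLB and 130, 99.5 and 118 in ES–HLB. All 20 embryonic libraries were lower, from 69.9 in TB to 97.7 in early FLB. Hence Dnajb1, like Hspa1b, was highest where the abundant members were lowest.

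Among the mitochondrial members, Hspe1 and Hspd1 had profiles nearer to that of Hsp90aa1 than Hspa9 did, with Pearson r of the log2 levels over 26 libraries of 0.982, 0.948 and 0.819. Hspd1, the HSP60 chaperonin (chromosome 1, 55077833 to 55088243), was at 1969, 1973 and 1809 CPM in early FLB, 1440, 1674 and 1677 in early HLB, 1124 and 1021 in HLB E10.5 and 781, 819 and 743 in FLB E10.5. Its libraries were at 793, 820 and 729 in BA, 1069, 1109 and 983 in Ca, 979, 1067 and 1059 in TB, 421, 413 and 440 in ES–FLB and 514, 478 and 477 in ES–HLB. The span of the means was 4.52-fold, and only HLB E10.5, Ca and TB, and FLB E10.5 and BA, overlapped as neighbours in the order.

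Hspe1, the HSP10 lid of that chaperonin (chromosome 1, 55088148 to 55091317), was at 463, 480 and 465 CPM in early FLB, 432, 476 and 496 in early HLB, 305 and 292 in HLB E10.5 and 220, 235 and 214 in FLB E10.5. It was at 116, 115 and 123 in ES–FLB and 135, 131 and 120 in ES–HLB, and at 199 to 271 in BA, Ca and TB. Hspd1 and Hspe1 overlap by 112 bases on opposite strands. The library kit keeps strand, but whether the counting used it is not given, so reads there may be shared. Hspa9, the HSP70 of the mitochondrial matrix, had a flatter profile of 2.21-fold. Early FLB was at 880, 896 and 840 CPM, early HLB at 742, 853 and 848, HLB E10.5 at 601 and 608, and FLB E10.5 at 530, 529 and 505. Ca, at 838, 831 and 756, lay within the range of early HLB and below every early FLB library, while BA was at 511 to 567 and TB at 573 to 641. With CPM as deposited, Ca replicate 2 (794) was above early FLB replicate 3 (774). ES–FLB was at 382, 396 and 404 and ES–HLB at 435, 420 and 438.

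Across the 26 libraries the log2 levels of the 7 abundant members were positively correlated, with Pearson r from 0.548 for Hsph1 and Hspa9 to 0.982 for Hsp90aa1 and Hspe1, by way of 0.950 for Hspd1 and Hspa9. Dnajb1, Hspa1a and Hspa1b were negatively correlated with each of these 7, from -0.387 for Dnajb1 and Hsph1 to -0.671 for Dnajb1 and Hspa9, and positively with each other (0.412 to 0.705). The libraries of a group share their source, so these are descriptions. The r values of Hspa1a and Hspa1b, and the likeness of Hspa1b below, rest on few reads, which the twins may share. Outside the chaperone lists, the 3 genes most like Hspd1 among 9817 were Serbp1 (r = 0.990), C1qbp (0.990) and Rpl4 (0.987). For Hspa8 they were Psma7 (0.978), Rpl35 (0.978) and Rpl22 (0.976), and for Hsp90ab1 Rpl8 (0.984), Psmd1 (0.979) and Hdgf (0.977). For Hspa1b they were Snx25 (0.845), Atp6v1b2 (0.829) and Egr1 (0.828), an immediate early gene. Some members share sequence with pseudogenes, 66.8% of the 80-base windows of Hspa8, 52.1% of those of Hsp90aa1, 32.1% of Hspd1 and 22.7% of Hspe1, so part of their reads may be placed elsewhere.

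The first question of the design was how far ES-derived limb mesenchyme differed from limb buds of the same type. The members were picked with this contrast known, so their differences are given without a test. Against early FLB, ES–FLB was lower by 2.22 log2 units for Hsp90aa1 (to 0.215 of the level), 2.17 for Hspd1 (0.221) and 1.99 for Hspe1 (0.252). The difference was -1.34 for Hsph1, -1.21 for Hspa8, -1.14 for Hspa9 and -1.07 for Hsp90ab1, whereas Hspa1b was higher by 0.93 and Dnajb1 by 0.34. ES–HLB against early HLB gave -1.86 for Hspe1, -1.70 for Hspd1, -1.68 for Hsp90aa1, -1.44 for Hsph1, -0.91 for Hspa8 and Hspa9, -0.68 for Hsp90ab1, 0.49 for Dnajb1 and 1.61 for Hspa1b. Against the E10.5 buds the same genes were lower by less, from -0.38 (Hsp90ab1) to -1.20 (Hsp90aa1) in the forelimb type and from -0.44 (Hsp90ab1) to -1.31 (Hsp90aa1) in the hindlimb type. Hspa1a did not pass the filter of 1 CPM in 3 libraries in any of these 4 comparisons, and Hspa1b passed it through its ES-derived libraries, so its difference had to be positive or near 0. Reads of Hspa1b alone are also not firm because of its twin. The sum of the twins had means of 3.76 CPM in ES–FLB and 1.66 in early FLB, and of 4.85 in ES–HLB and 1.24 in early HLB.

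**Figure D2:**
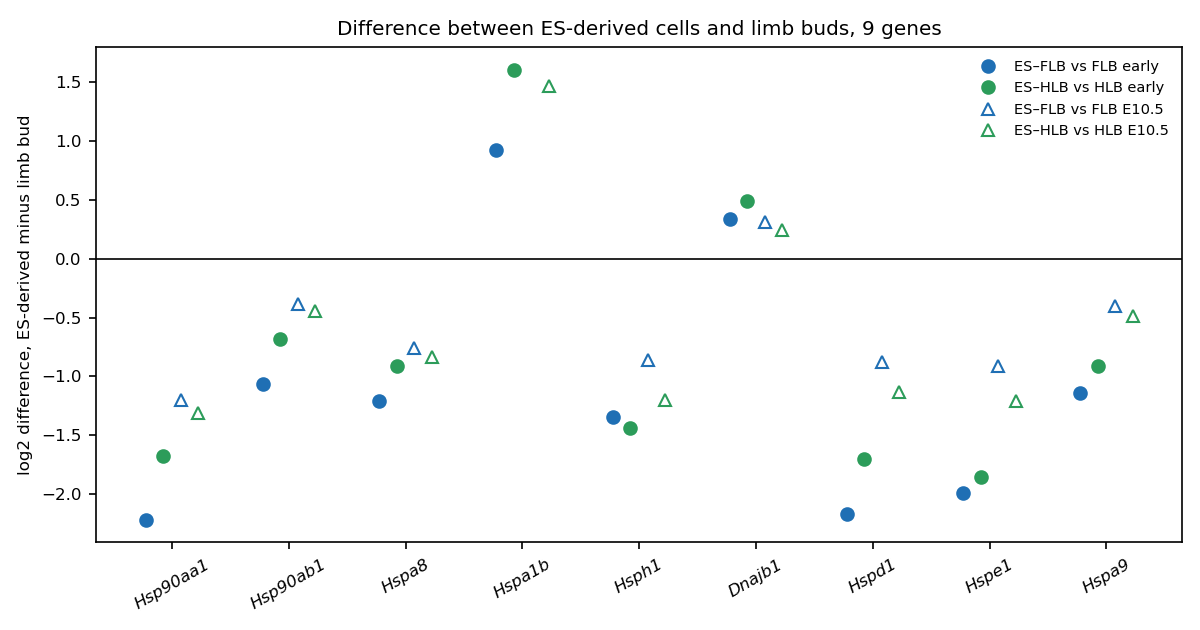
Difference in log2(CPM + 0.5) between ES-derived cells and limb buds for 9 members, with filled circles for early buds, open triangles for E10.5 buds, blue for forelimb and green for hindlimb type, and no error shown because the members were chosen with this contrast known. Hspa1b and Dnajb1 lie above 0 and the other genes below it, down to -2.22 for Hsp90aa1 in the forelimb type. Hspa1b against FLB E10.5 is not drawn because 2 of those libraries held 1 read.

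In each of these 4 comparisons, 7 of the 9 members that passed the filter were lower in every ES-derived library than in every limb bud library, and 2 were higher. Of all genes, 41.6% were lower without overlap and 41.9% higher in ES–FLB against early FLB, 39.9% and 40.5% in ES–HLB against early HLB, 37.4% and 36.5% in ES–FLB against FLB E10.5, and 38.9% and 41.0% in ES–HLB against HLB E10.5. Nothing is read from these counts, since the rule used the contrast.

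Other chaperone genes were taken from 10 textbook lists of 127 genes and tested with limma, called at a Benjamini-Hochberg adjusted p below 0.05 over all genes. The lists were written with earlier results of these data known, so the list counts are not independent of those results. In ES–FLB against early FLB, where 41.0% of all genes tested were lower and 41.1% higher, 80 of 118 list genes were lower and 24 higher, with a median of -0.47 against 0.007 for all genes. In ES–HLB against early HLB (38.9% lower, 39.6% higher over all genes) 82 of 117 were lower and 23 higher, with a median of -0.45. The E10.5 buds gave 69 lower and 25 higher of 116 for the forelimb type (36.3% and 35.4% of all genes) and 67 lower and 21 higher of 116 for the hindlimb type (34.6% and 37.2%). The list genes thus leaned to lower levels, while all genes split evenly. The split depended on the scaling. With the CPM as deposited, the median of all genes rose to 0.23 and 0.18 against the early buds, the share of calls that were higher went from 50.1% to 62.4% (forelimb type) and from 50.5% to 60.6% (hindlimb type), and the list gave 70 lower and 34 higher, and 68 lower and 28 higher.

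**Figure D3:**
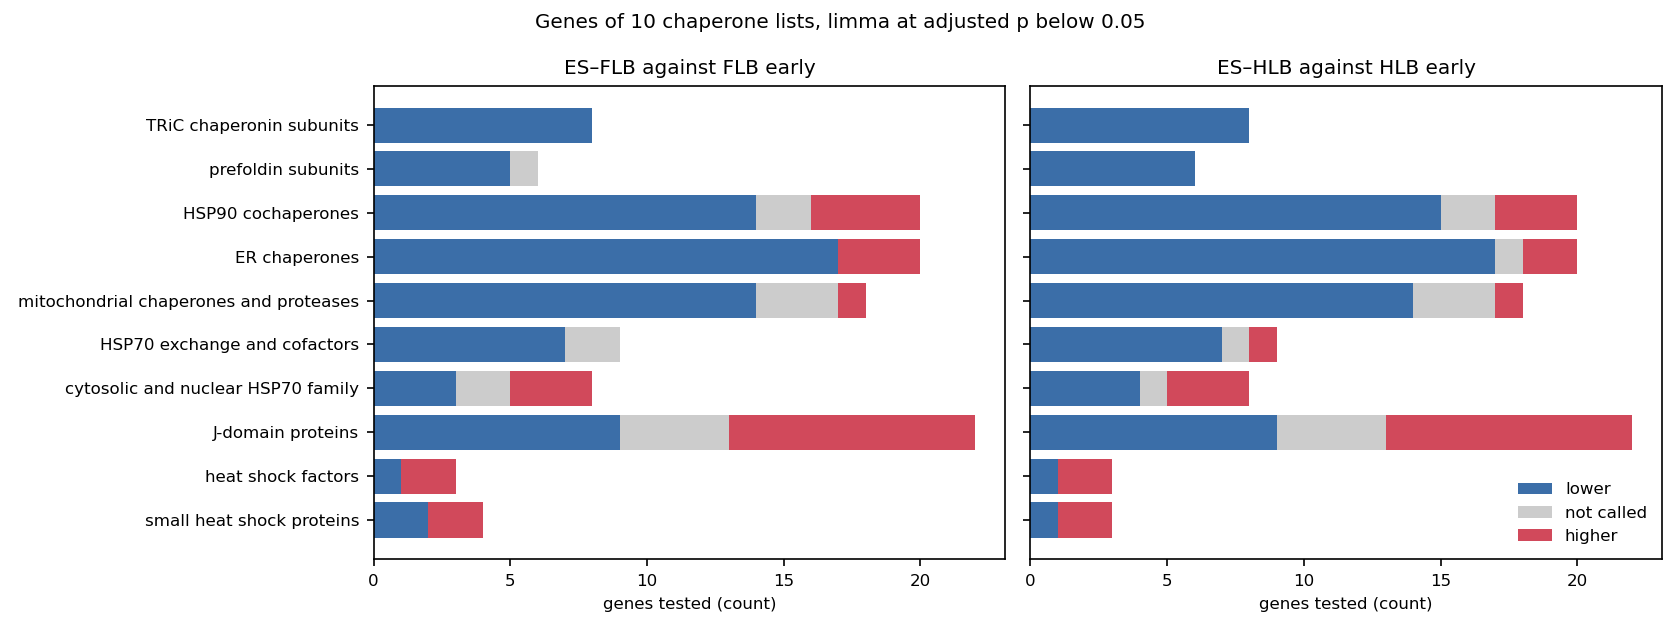
Number of genes of the 10 chaperone lists that were lower (blue), not called (grey) or higher (red) in ES–FLB against early FLB (left) and ES–HLB against early HLB (right), by limma at an adjusted p below 0.05. All 8 TRiC subunits tested are lower in both panels, while the J-domain proteins split into 9 lower and 9 higher of 22.

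The cytosolic chaperonin TRiC, a ring of Cct subunits that folds actin and tubulin, was lower throughout. All 8 subunits tested were lower in ES–FLB than in early FLB, from -0.73 for Tcp1 to -1.38 for Cct6a (adjusted p = 4.73e-11 and 4.25e-14), and 8 of 8 were lower in the other 3 comparisons as well. Cct6a was at 628 ± 19.6 CPM in early FLB and 240 ± 9.09 in ES–FLB (SD, n = 3 each). Its upstream partner prefoldin, which hands nascent chains to TRiC, was lower for 5 of 6 subunits in that comparison and 6 of 6 in the others. Of 20 HSP90 cochaperones, 14 were lower and 4 higher in the forelimb type, among them Ahsa1, which stimulates the HSP90 ATPase (-1.48, from 281 ± 12.1 to 100 ± 2.83 CPM), and Ppid (-1.47). In the hindlimb type 15 were lower and 3 higher.

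Chaperones of the endoplasmic reticulum were lower for 17 of 20 genes and higher for 3 in ES–FLB against early FLB. Hspa5 (BiP) differed by -0.84 and Hsp90b1 by -0.90, and Sdf2l1, which acts with BiP, was at 35.3 ± 2.94 CPM in early FLB and 9.79 ± 1.35 in ES–FLB (-1.80). In ES–HLB 17 were lower and 2 higher, with -0.87 for Hspa5 and -2.13 for Sdf2l1. Of 18 other mitochondrial chaperones and proteases, 14 were lower and 1 higher in each limb type, with -0.61 and -0.47 for Trap1, the mitochondrial HSP90. Bag2, a BAG-domain exchange factor, was at 20.2 ± 1.70 CPM in ES–HLB and 50.7 ± 6.23 in early HLB (-1.30).

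A few list genes were higher. Dnajb4, a heat-inducible J-domain protein, rose from 8.84 ± 0.883 CPM in early FLB to 27.2 ± 1.26 in ES–FLB (1.57) and by 1.09 in the hindlimb type. Hsbp1, a heat shock factor binding protein, was at 125 ± 2.94 in ES–FLB and 57.0 ± 1.74 in early FLB (1.12), and at 122 ± 0.714 in ES–HLB and 62.0 ± 3.0 in early HLB. Hspb1, the small heat shock protein HSP27, was higher by 0.71 and 1.10. Hsf1, the main heat shock factor, was lower by 0.44 and 0.49 log2 units, and Hsf2 was higher by 0.27 and 0.39. Bag3 differed by 0.08 (adjusted p = 0.336) in the forelimb type and was higher by 0.39 in the hindlimb type. The J-domain list was therefore mixed, with 9 lower and 9 higher of 22 in each limb type.

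Other gene groups moved with the same contrast. The 8 immediate early genes, which respond to cell handling, summed to 1444 to 2009 CPM in ES–FLB and 1119 to 1354 in ES–HLB against 178 to 188 in early FLB and 170 to 178 in early HLB, and 7 of 8 were higher in each comparison with early buds. Erythroid markers were lower for 4 of 4 genes, with sums of 5.23 to 7.65 CPM in ES–FLB and 87.5 to 163 in ES–HLB against 2264 to 4219 and 3269 to 6695 in early FLB and HLB. Endothelial markers were also lower for 4 of 4 (20.8 to 24.2 and 33.1 to 37.5 against 262 to 321), epithelial markers for 5 of 5 and 4 of 5 (64.3 to 131.7 against 233 to 394), and 4 of 4 markers of undifferentiated ES cells were higher (10.6 to 67.3 against 0.350 to 1.03). None of these marker lists had a gene at 0 in all libraries of the groups compared. Their part in the chaperone differences was not tested.

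The second question was whether the limb types differed. From here on members are tested, but each comparison shares libraries with the contrasts known when they were picked. Their p-values are therefore not independent of the choice. ES–HLB was higher than ES–FLB for 4 of 10 members and the other 6 did not pass the test, where 13.1% of all genes were higher and 12.0% lower. Hsp90aa1 rose by 0.30 ± 0.032 (log2, SE; adjusted p = 6.65e-09), Hsp90ab1 by 0.22 ± 0.024 (1.25e-08), Hspd1 by 0.21 ± 0.037 (6.49e-05) and Hspa9 by 0.13 ± 0.036 (0.00696), by limma with n = 3 libraries each. In these 4 genes no library of one group overlapped the other, as in 19.2% of all genes in this direction and 17.9% in the opposite one. Hspa8 differed by 0.17 (adjusted p = 0.266) and Hspa1b by 0.38 (0.219). Without limma's trend and robust settings 2 members were called. Among the list genes 17 were higher and 8 lower of 116, with 10 called without those settings. Hspb1 rose most, from 10.2 ± 1.66 to 36.0 ± 5.28 CPM (1.77, adjusted p = 6.11e-13), and the ER chaperones went the other way, with 7 of 20 lower, among them Serpinh1, the collagen chaperone HSP47 (-0.30), and Hspa5 (-0.19). The erythroid and undifferentiated ES markers were 4 of 4 higher in ES–HLB in this comparison, and 3 of 8 immediate early genes were lower. Their part was not tested.

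In embryos the limb types differed little at the early stage and more at E10.5. The study dates the early FLB and HLB to different ages, so limb type and age cannot be told apart in the early comparison. Early HLB was lower than early FLB for 2 of 8 members tested, Hspd1 (-0.27, adjusted p = 0.0156) and Hsp90ab1 (-0.16, 0.0257), with 11.0% of all genes lower and 9.35% higher. Hsp90aa1 differed by -0.24 (0.066). Neither call held without FLB early replicate 1 or 2 (adjusted p = 0.109 and 0.0728 for Hsp90ab1, 0.0775 and 0.0659 for Hspd1), and neither was called without the trend and robust setting. That of Hsp90ab1 was also lost without HLB early replicate 2 or 3 (0.0558 and 0.0506). At E10.5, HLB was higher than FLB for 7 of 8 members, against 12.2% of all genes. Hspd1 rose by 0.46 ± 0.041 (adjusted p = 1.01e-11), Hsp90aa1 by 0.42 ± 0.034 (2.09e-14), Hspe1 by 0.42 ± 0.049 (1.15e-09), Hsp90ab1 by 0.28, Hspa8 by 0.25, Hsph1 by 0.24 and Hspa9 by 0.21, while Dnajb1 differed by 0.11 (0.254). Without the trend and robust settings the first 3 of these were called. Of the list genes 39 of 116 were higher and 1 lower, including 8 of 8 TRiC subunits (0.13 to 0.30) and 10 of 20 HSP90 cochaperones, but only 3 list genes were called without the trend and robust settings. With CPM as deposited the higher share of all calls fell from 50.3% to 31.1%, and the list gave 24 higher and 2 lower. In the early buds it rose from 46.0% to 61.8%, with 15 higher and 6 lower list genes in place of 10 and 9.

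The third question was stage. The early libraries used here and in the interaction below were also the reference of contrasts known when the members were picked. The p-values of the members are to be read with that limit. From early bud to E10.5, 7 of 9 members tested fell in FLB, where 34.6% of all genes fell and 30.2% rose. Hspd1 fell by 1.30 log2 units (SE 0.043, adjusted p = 2.89e-13), Hspe1 by 1.07 (1.39e-12), Hsp90aa1 by 1.02 (1.78e-11), Hspa9 by 0.74, Hsp90ab1 by 0.68, Hsph1 by 0.48 and Hspa8 by 0.45 (0.000645). The early and E10.5 libraries did not overlap for any of the 7, which held for 36.8% of all genes. Dnajb1 did not pass the test, and Hspa1b was at 1 read in 2 of 3 E10.5 libraries. Without the trend and robust settings 7 members were called as well. In HLB 6 of 8 members fell, where 16.9% of all genes fell and 12.0% rose. Hspe1 fell by 0.64 (8.94e-05), Hspd1 by 0.57 (0.000505), Hspa9 by 0.43 (0.000847), Hsp90aa1 by 0.36 (0.0146), Hsp90ab1 by 0.24 (0.00354) and Hsph1 by 0.24 (0.0356), Dnajb1 rose by 0.24 (0.011), and Hspa8 differed by -0.07 (0.329), with 4 of these 7 members called without the trend and robust settings. The calls of Hsp90aa1, Hsp90ab1, Hsph1 and Dnajb1 were lost when either HLB E10.5 library was left out, with adjusted p between 0.0539 and 0.19, and those of Hsph1 and Dnajb1 also without HLB early replicate 3 (0.107 and 0.0552). Leaving out an HLB E10.5 library leaves 1, which is then assumed to vary like the others.

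**Figure D4:**
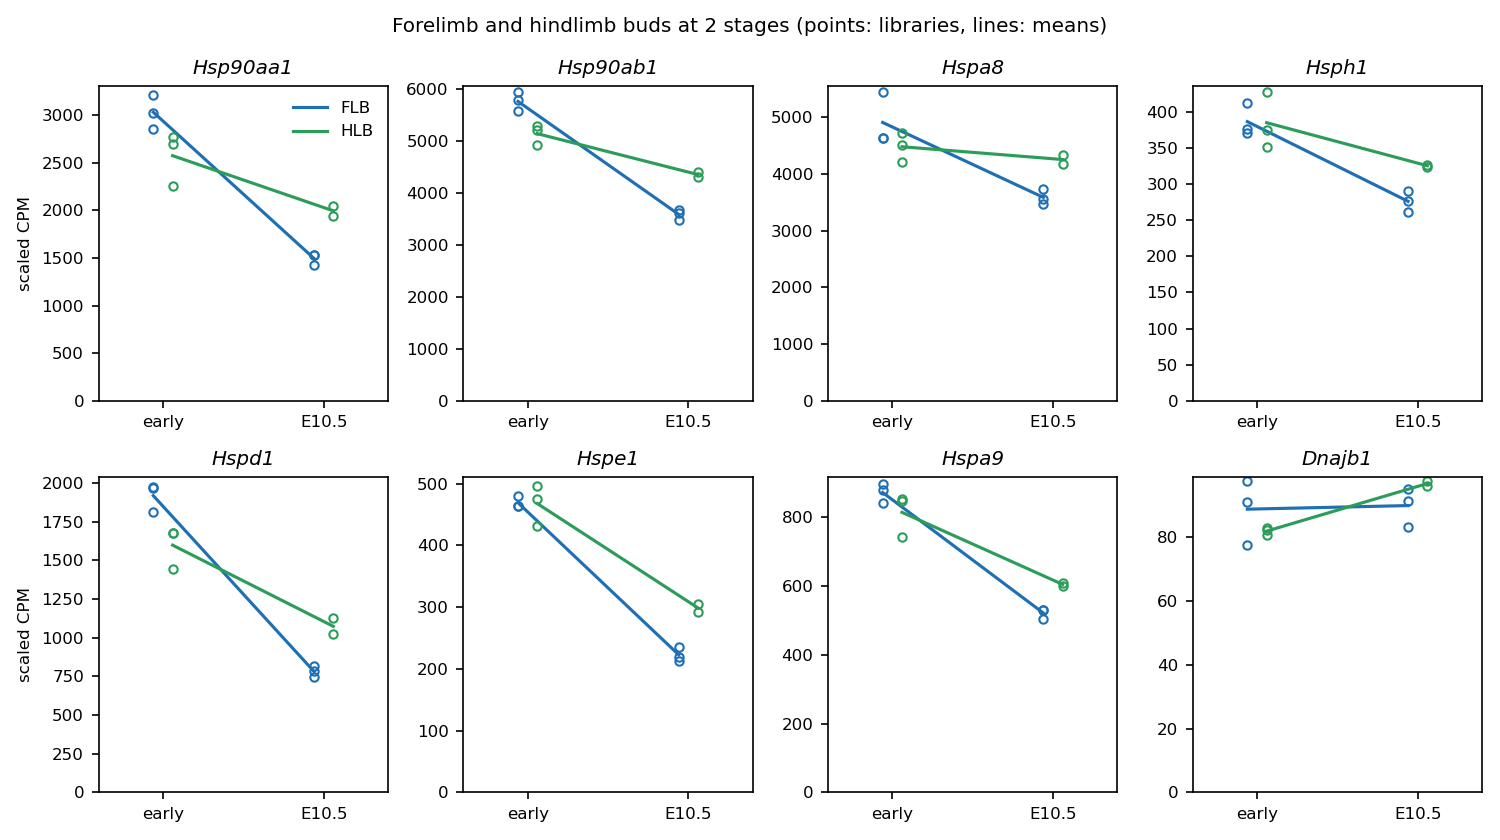
Scaled CPM of 8 members in early and E10.5 limb buds, with a point per library, lines through the group means, blue for FLB and green for HLB, on linear axes from 0. In each panel the mean of FLB is the higher at the early stage and that of HLB at E10.5, as for Hspd1 with 1917 and 1597 CPM early and 781 and 1073 at E10.5.

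The fall with stage differed between limb types for 6 of 9 members in a test of the interaction, all less negative in HLB, where 12.1% of all genes were positive and 10.7% negative. The difference was 0.72 ± 0.092 for Hspd1 (adjusted p = 0.000102), 0.66 ± 0.108 for Hsp90aa1 (0.00176), 0.44 ± 0.054 for Hsp90ab1 (1.46e-05), 0.43 ± 0.076 for Hspe1 (0.000579), 0.38 ± 0.091 for Hspa8 (0.011) and 0.31 ± 0.073 for Hspa9 (0.00432). It was 0.25 (0.0691) for Hsph1 and 0.22 (0.148) for Dnajb1. The 8 TRiC subunits were all positive (0.21 to 0.45), and 32 list genes were positive and 4 negative of 118, with 23 called without the trend and robust settings. Of the markers of other cell types, 2 of 4 endothelial genes were negative and 1 of 5 epithelial genes positive. Sox10 of neural crest (-1.47) and T of tail bud (-1.69) were negative, and Tnnt2 of heart muscle (1.74) was positive. Of the immediate early genes, Jun (-0.64) was negative and Atf3 (1.64) positive. The part of these markers was not tested. With CPM as deposited the list gave 19 and 11, the positive share of all calls fell from 53.1% to 29.0%, and Hspa8 lost its call. It lost it also without HLB E10.5 replicate 1 (adjusted p = 0.0544), and without the trend and robust settings. The groups differed in depth by stage, and the study dates the early FLB and HLB to different ages, so that limb type and age step cannot be told apart.

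The list genes also fell with stage. In FLB 73 of 118 fell and 13 rose (median -0.26 against -0.02 for all genes), with 8 of 8 TRiC subunits lower (-0.34 to -0.72) and 16 of 20 ER chaperones. In HLB 43 of 117 fell and 6 rose, with 7 of 8 TRiC subunits lower. The count of 49 calls became 18 without the trend and robust settings and 18 to 60 with 1 library left out, the lowest being without HLB E10.5 replicate 3 (18) or 1 (19). The largest falls by the naming rule were in FLB Ppid (-0.90), Htra2, a mitochondrial protease (-0.83), and Dnajc2, a ribosome-bound J-domain protein (-0.80), and in HLB Htra2 (-0.60), Clpp (-0.54) and Pfdn4 (-0.50). Dnajb4 rose by 1.23 in FLB and 0.67 in HLB, and Hspa12b, an atypical HSP70 of endothelium, by 0.97 and 0.50. Hspb1 rose by 1.29 in FLB and was at -0.20 (adjusted p = 0.193) in HLB. With CPM as deposited the higher share of calls went from 46.6% to 66.0% in FLB, where the median of all genes became 0.14 and the list gave 57 lower and 26 higher, and from 41.5% to 56.2% in HLB, where it gave 33 and 9. Epithelial markers fell with stage in 5 of 5 genes in FLB (300 to 394 down to 170 to 183 CPM) and 4 of 5 in HLB (233 to 292 down to 177 to 194). Their part was not tested.

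The difference between ES-derived cells and early buds can be set side by side for the limb types, without a test of the members because both contrasts were known when they were picked. Hindlimb minus forelimb type, it was 0.54 log2 units for Hsp90aa1, 0.47 for Hspd1, 0.39 for Hsp90ab1, 0.30 for Hspa8, 0.23 for Hspa9 and 0.13 for Hspe1. For each of these 6 genes early FLB was the higher of the bud means and ES–FLB the lower of the ES-derived means. The other list genes were tested by the interaction term, with 23 positive and 6 negative of 118 where 12.8% of all genes were positive and 9.96% negative, 6 of 8 TRiC subunits among the positive. With CPM as deposited these were 15 and 11, and the positive share of all calls was 44.5% in place of 56.2%, while 13 list genes were called without the trend and robust settings. Marker genes of other cells had positive terms as well, 4 of 4 erythroid genes (2.12 to 4.13), 4 of 4 genes of undifferentiated ES cells (1.59 to 2.21), 2 of 4 endothelial genes (Kdr and Tek) and 2 of 5 epithelial genes (Krt8 and Krt18), and 2 of 8 immediate early genes (Junb and Ier2) had negative ones. Sox10 of neural crest (1.59) and Dlx2 of the branchial arch (0.87) were also positive. Whether these bear on the list genes was not tested. These values share their early buds with the stage test above.

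The last question was where the limb bud stood among other E10.5 tissues, each compared with the same FLB E10.5 libraries. In BA 0 of 9 members tested passed limma at the adjusted p, 0 at an unadjusted p below 0.05, and 0 without the trend and robust settings, where 10.9% of all genes were higher and 10.4% lower. Apart from Hspa1b, which held 1 read in 2 of the FLB libraries, the differences ran from -0.05 ± 0.052 for Hspe1 to 0.05 ± 0.028 for Hsp90ab1 (log2, SE). Among the list genes 4 were higher and 13 lower of 117, and 7 of 20 ER chaperones were lower, among them Dnajb11 (-0.30). Limma without the trend and robust settings called 5 list genes. Epithelial markers were higher in BA for 4 of 5 genes, at 248 to 277 CPM against 170 to 183, and what they add was not tested.

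TB was higher than FLB for 5 of 8 members and lower for 2, where 25.1% of all genes were higher and 24.2% lower. Hspd1 was higher by 0.41 ± 0.037 (adjusted p = 1.76e-10), Hspa9 by 0.24, Hspe1 by 0.23, Hsp90aa1 by 0.13 (0.00187) and Hsp90ab1 by 0.09 (0.00244), whereas Dnajb1 was lower by 0.27 (0.000528) and Hsph1 by 0.14 (0.00833), the last not without FLB E10.5 replicate 2 (0.0933). Without the trend and robust settings Hsp90aa1, Hsp90ab1 and Hsph1 were not called. Of the list genes 32 were higher and 13 lower of 117, with 6 of 8 TRiC subunits higher (0.12 to 0.22), and 25 list genes were called without the trend and robust settings. Hspa12a was higher by 1.59 and Hspa12b lower by 1.11. Markers of other cells were also higher in TB, with 4 of 4 erythroid genes (5796 to 6712 CPM against 2792 to 4000), 3 of 3 neural crest genes (31.5 to 36.1 against 7.70 to 8.37), 3 of 4 endothelial genes (274 to 296 against 231 to 235) and 3 of 5 epithelial genes (207 to 238 against 170 to 183, with 1 lower), and their part was not tested.

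**Figure D5:**
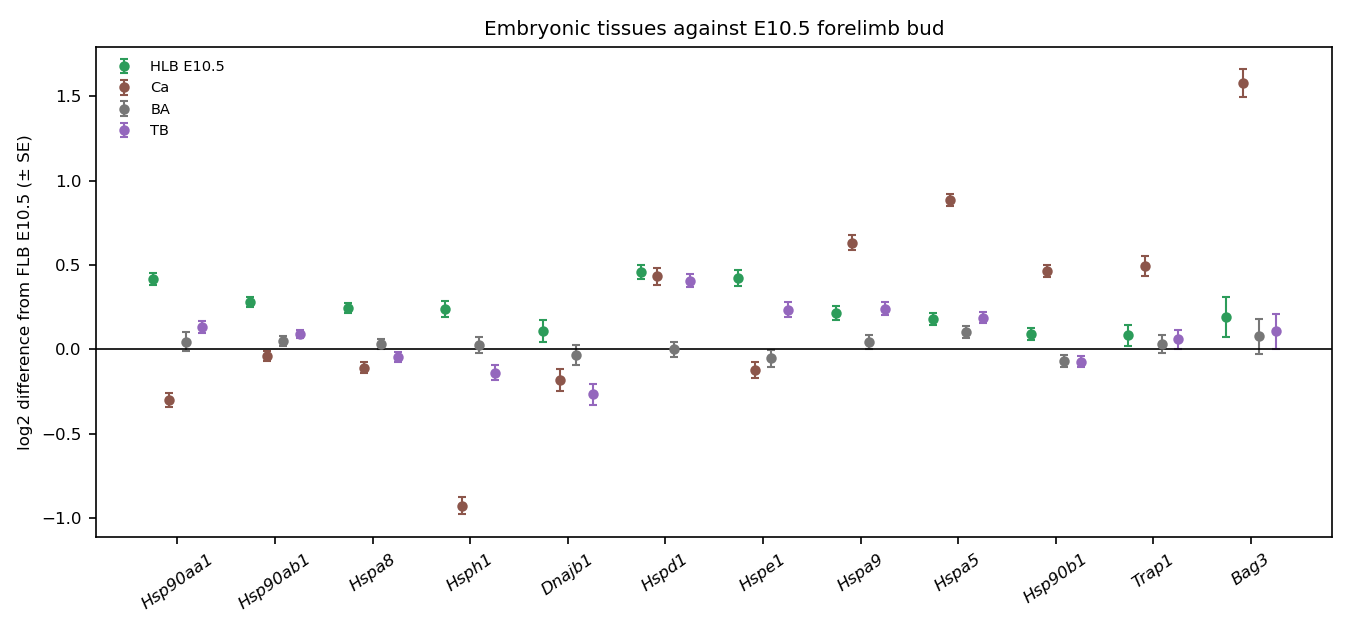
Difference in log2(CPM + 0.5) from FLB E10.5, with the standard error, for 8 members and 4 other chaperones in HLB E10.5 (green), Ca (brown), BA (grey) and TB (purple). Ca spreads widest, from -0.93 for Hsph1 to 1.58 for Bag3, and BA lies near 0 throughout.

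Ca differed most. It was lower for 5 of 9 members and higher for 2, where 38.3% of all genes were lower and 37.2% higher. The mitochondrial Hspa9 and Hspd1 were higher by 0.63 ± 0.044 (adjusted p = 3.45e-09) and 0.43 ± 0.048 (1.65e-06), and Hspe1 was lower by 0.12 (0.0344). Hsph1 was lower by 0.93 ± 0.052 (2.41e-10), Hsp90aa1 by 0.30 (5.89e-06), Dnajb1 by 0.18 (0.0216) and Hspa8 by 0.11 (0.00677), and Hsp90ab1 differed by -0.04 (0.208). The call of Hspa8 was lost without FLB E10.5 replicate 1 (0.07), that of Dnajb1 without replicate 1 or 3 of either group (0.0519 to 0.108), and that of Hspe1 without Ca replicate 1 or 3 or FLB E10.5 replicate 1 or 2 (0.0556 to 0.199). They were also lost under median-of-ratios scaling, which turned the difference of Hsp90ab1 to 0.0125, and 4 of the 7 members were called without the trend and robust settings.

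In the lists, Ca had 64 higher and 39 lower of 121. ER chaperones were higher for 19 of 20 genes (Hspa5 by 0.88, Hsp90b1 by 0.46), mitochondrial chaperones and proteases for 14 of 18 (Trap1 by 0.49), and TRiC subunits were lower for 7 of 8. Bag3, which works with small heat shock proteins in muscle, was at 65.3 ± 2.87 CPM in Ca and 21.6 ± 1.58 in FLB E10.5 (1.58). The small heat shock proteins themselves were higher for 6 of 7 tested. Hspb7, a cardiac family member, was at 709 ± 88.9 CPM in Ca and at 0 in all 3 FLB E10.5 libraries, Cryab at 266 ± 30.4 and 0.685 ± 0.312, and Hspb2 at 96.5 ± 9.10 and 0.0570 ± 0.0988 (SD, n = 3 each). Hspb1 was at 303 ± 36.1 against 15.4 ± 1.34 (4.25, adjusted p = 1.63e-14). Erythroid markers were 4 of 4 higher in Ca, at 24022 to 34935 CPM against 2792 to 4000, as were 4 of 4 endothelial markers, at 688 to 744 against 231 to 235. Of 5 epithelial markers 2 were higher and 3 lower. The part of these markers was not tested.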

How the data were processed

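RNA-seq (stranded mRNA libraries, single-end reads of 80 bases) covered 27 libraries in 9 groups. The deposited values were CPM per gene: the authors mapped reads to mm10 with HISAT 2.0.4, counted them per annotated gene with Cuffdiff and scaled each library to 1000000. The strand setting of the counting is not given in the sources used here. Read depth was taken from the smallest step of the CPM values, 94.6% to 99.1% of low values lying within 0.05 read of a whole number. Intervals and floors in reads cover counting error only.

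HLB E10.5 replicate 2, with 8333 missing values on several chromosomes, was left out. The 26 other libraries were rescaled by an unweighted trimmed mean of log ratios (30% of log ratios, 5% of intensities trimmed, factors 0.904 to 1.07). Genes at 1 CPM or more in 3 libraries of a fit entered limma 3.58.1 (R 4.3.3, trend and robust) as log2(CPM + 0.5), with 1 fit per pair of groups or interaction and Benjamini-Hochberg adjustment over all genes of the fit. Fold changes on this scale understate changes of low genes. The scripts were tested on simulated data. A test on counts, as the study's own with edgeR 3.16.2, was not used because the values were CPM.

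The members and the chaperone lists (127 genes) were chosen with earlier results of these data known. Members were given without a test in each contrast of ES-derived cells with limb buds, the difference of these contrasts between limb types included. Their other tests share libraries with these contrasts, so those p-values are not independent of the choice. Named list genes were, per comparison and direction, the 3 largest changes among called genes whose higher group reached 16 CPM and whose libraries did not overlap, plus Hsf1, Hsf2, Hspa5, Hsp90b1, Trap1, Hspb1 and Bag3 where they bear on a result. Likeness was Pearson r over genes with a mean of 10 CPM or more. Same-numbered libraries were checked for pairing, and their deviations were weakly correlated in some comparisons. The main fits did not pair them. Sequences came from RefSeq tables of GRCm38.p6, and promoters of the other 4 members were not used here.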

Additional observations from a re-analysis of the deposited data

Results flagged for a closer look

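Results here were picked out because an effect differed between limb types by a test of the difference itself, limma's interaction term with an adjusted p below 0.05 over all genes. For the change from early bud to E10.5, hindlimb minus forelimb type, the log2 values were 0.66 for Hsp90aa1, 0.44 for Hsp90ab1, 0.38 for Hspa8, 0.72 for Hspd1, 0.43 for Hspe1 and 0.31 for Hspa9 among the members. Among other chaperones they were 0.35 for Hspa5, 0.24 for Hsp90b1, 0.37 for Bag3 and -1.49 for Hspb1. The limma call of Hsp90b1 was lost without FLB E10.5 replicate 2 or 3, or FLB early replicate 1 or 3 (adjusted p = 0.0548 to 0.0698). That of Bag3 was lost without any FLB early library, FLB E10.5 replicate 1 or 2, or HLB early replicate 1 or 2 (0.0615 to 0.111). Without HLB E10.5 replicate 1 the value of Hspa5 was 0.31. Hspb1 had a mean of 6.05 CPM in early FLB and of 14.2 to 16.4 CPM in early HLB, HLB E10.5 and FLB E10.5. No group of 4 or more libraries existed in which a single library could be tested as far from the others. The tests of members share their early libraries with the contrasts known when the members were picked.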

How the results depend on the processing

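Of 2518 log2 differences recomputed for single genes, 2329 stayed on the same side of the threshold or within the spread, 140 lost a call, 15 gained one, 32 moved by more than the spread, and 2 changed sign, Hsp90ab1 in Ca against FLB E10.5 (0.0125 under median-of-ratios scaling) and Hsph1 in the ES interaction (-0.0952, and -0.1935 to 0.0297 without 1 ES–HLB library); the cause was not tested. An adjusted p below 0.001 called fewer list genes by construction: ES–HLB against ES–FLB 9, HLB stage 7, early HLB against FLB 1, E10.5 HLB against FLB 19, BA 4, TB 21, and 2 and 8 for the ES and stage interactions. Limma without trend and robust settings gave 10, 18 (HLB stage), 3 (E10.5 HLB against FLB), 5 (BA), 25 (TB), 13 and 23. One model over all libraries gave 29 for early HLB against FLB, and CPM as deposited 26 for E10.5 HLB against FLB. Leaving out 1 library gave 100 to 104 and 99 to 105 for the ES-derived cells against early buds (forelimb, hindlimb), 86 to 93 and 81 to 87 against E10.5 buds, 17 to 28 for ES–HLB against ES–FLB, 81 to 86 and 18 to 60 for stage in FLB and HLB, 10 to 18 and 26 to 39 for HLB against FLB early and at E10.5, 93 to 101 for Ca, 9 to 20 for BA, 33 to 48 for TB, and 19 to 31 and 25 to 36 for the interactions. Single libraries that moved a count by over 1.5 times were HLB E10.5 replicates 1 (19) and 3 (18) and HLB early replicate 3 (28) for HLB stage, FLB early replicate 1 (10) and HLB early replicate 3 (12) for early HLB against FLB, HLB E10.5 replicate 1 (26) for E10.5 HLB against FLB, BA replicate 1 (11) and FLB E10.5 replicate 2 (9) for BA, and FLB early replicate 2 (19) for the ES interaction.

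Deviations of same-numbered libraries were weakly correlated (r from -0.108 to 0.149). In ES–HLB against ES–FLB every such r (0.042 to 0.068) was above those of other numbers (-0.054 to -0.002). The same held for BA (0.061 to 0.149 against -0.082 to 0.018), Ca, and HLB against FLB at E10.5, but not for the other comparisons. Whether the numbers pair the samples there was not settled. With the replicate number as a block the list counts were 104, 105, 93 and 89 for the ES comparisons, 32 for ES–HLB against ES–FLB, 88 and 42 for stage, 20 and 42 for limb type, 105, 21 and 39 for Ca, BA and TB, and 26 and 35 for the interactions, and the call of Hsp90ab1 in HLB stage was lost (0.056). Hsph1 in HLB stage was also lost with CPM as deposited, in one model over all libraries and with no filter, and Hspa9 in ES–HLB against ES–FLB, Hsph1 in E10.5 HLB against FLB, and Hsp90aa1 and Hsph1 in TB in one model over all libraries. Hspa8, Hspa5, Hsp90b1 and Bag3 in the stage interaction were lost with CPM as deposited. Count tests with edgeR and DESeq2 on reads rebuilt from the CPM steps were not run. Hspa1a and Hspa1b, at 1 to 31 reads in embryonic libraries, are limited by depth. Of 90 mean levels of members by group, 37 moved by more than the spread between libraries with CPM as deposited. These means were 0.913 to 1.07 times the rescaled ones.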
